A study of Mus musculus with 5 samples.

Results

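The chaperonin CCT (also called TRiC) was examined in mouse whole blood through the genes of its 8 subunits: Tcp1 (alpha), Cct2 (beta), Cct3 (gamma), Cct4 (delta), Cct5 (epsilon), Cct6a (zeta), Cct7 (eta) and Cct8 (theta). The members were all probe sets that the array annotation assigns to 1 gene symbol, where that symbol is a subunit gene, and they numbered 25 of 45037 probe sets other than array controls. The 8 genes were among 18193 with such a probe set. Total RNA of blood from adult female first-generation mice was measured on Affymetrix arrays, 1 array per sample, in 3 samples from crosses of DBA/2J with FVB/NJ (DBAxFVB F1) and 2 samples from crosses of AKR/J with FVB/NJ (AKRxFVB F1). All animals thus carry 1 set of chromosomes from FVB/NJ and differ in the other parent, and no treatment beyond anaesthesia with Avertin before killing is labelled. The comparison asks how blood expression at rest differs between these genotypes. Whether each sample is a separate animal is not labelled, and p-values therefore measure a spread between samples that could be technical.

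CCT is a cylinder of 2 stacked rings, and each ring holds every one of the paralogous subunits in a fixed order. It encloses unfolded proteins and, through cycles of ATP binding and hydrolysis, folds the cytoplasmic actins and tubulins and many proteins with a beta-propeller (WD40) fold, among them G protein beta subunits. Prefoldin delivers unfolded actin and tubulin to it, and phosducin-like proteins act with it as cochaperones. Because every subunit has its own place in the ring, a complete complex needs all of them.

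For 7 of the 8 genes RefSeq promoter windows of mouse build GRCm38.p6 were at hand, and 4 are shown, trimmed to the 250 bases upstream of the annotated start and printed 5′ to 3′ on the strand of the gene. Cct3 and Cct6a are shown for the size and the p-value of their differences between the crosses, and Cct7 and Cct8 because their values followed each other across the arrays. Capitals mark the CCAAT box (CCAAT) and the GC box (GGGCGG), each searched on both strands, so that they also appear as ATTGG and CCGCCC. The windows lie at chr3:88296885-88297134 (plus strand) for Cct3, chr5:129787106-129787355 (plus strand) for Cct6a, chr6:85451255-85451504 (plus strand) for Cct7 and chr16:87495870-87496119 (minus strand) for Cct8.
Cct3: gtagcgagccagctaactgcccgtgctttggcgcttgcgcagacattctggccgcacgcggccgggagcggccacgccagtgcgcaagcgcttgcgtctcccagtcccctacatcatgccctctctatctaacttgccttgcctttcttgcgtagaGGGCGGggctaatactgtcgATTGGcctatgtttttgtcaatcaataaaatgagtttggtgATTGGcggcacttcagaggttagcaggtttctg
Cct6a: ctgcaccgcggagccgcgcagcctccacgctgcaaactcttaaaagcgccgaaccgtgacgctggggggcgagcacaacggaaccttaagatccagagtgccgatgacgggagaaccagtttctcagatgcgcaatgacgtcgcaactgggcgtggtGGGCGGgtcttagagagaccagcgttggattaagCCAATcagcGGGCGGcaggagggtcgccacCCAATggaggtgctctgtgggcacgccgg
Cct7: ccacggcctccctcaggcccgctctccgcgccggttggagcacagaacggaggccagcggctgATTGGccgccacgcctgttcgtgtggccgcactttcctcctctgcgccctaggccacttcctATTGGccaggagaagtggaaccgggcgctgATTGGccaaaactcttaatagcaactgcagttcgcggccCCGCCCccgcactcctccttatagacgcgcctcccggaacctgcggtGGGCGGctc
Cct8: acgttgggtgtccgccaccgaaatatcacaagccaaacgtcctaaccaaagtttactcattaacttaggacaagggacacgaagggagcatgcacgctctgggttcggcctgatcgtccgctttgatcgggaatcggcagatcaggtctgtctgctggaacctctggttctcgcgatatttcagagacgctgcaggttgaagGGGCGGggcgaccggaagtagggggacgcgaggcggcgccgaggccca
The Cct3 window held 2 CCAAT boxes and 1 GC box, that of Cct6a 2 and 2, and that of Cct7 3 and 2, whereas the Cct8 window held 0 and 1. Over all 9 windows of the 7 genes, Cct2 and Cct5 having more than 1, a GC box stood in 8 and a CCAAT box in 4, against 32.7% and 33.8% of all 32851 mouse windows of that length. The sequence TATAAA stood in 0 of the 9 windows and in 12.4% of all windows, and the palindromic E-box CACGTG in 0 of 9 and in 6.02%. The core of ETS factor sites, CCGGAAG on either strand, was found in 2 of 9 windows (6.91% of all). A heat shock element half-site pair, searched as GAANNTTC, was found in 1 of 9 (6.69% of all). None of the matches in these windows overlapped another, and they describe letters only.

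Every subunit gene read lower in DBAxFVB F1 blood than in AKRxFVB F1 blood by its brightest tested probe set, but no difference passed the test across all probe sets. The log2 differences, given throughout as the DBAxFVB F1 mean minus the AKRxFVB F1 mean, ran from -1.20 for Cct4 to -0.34 for Tcp1, with a median of -0.67 over the 8 subunits, against 0.04 over the 22519 probe sets tested. Of the 21 CCT probe sets bright enough to be tested, 21 read lower, 13 of them with every DBAxFVB F1 array below every AKRxFVB F1 array; over all tested probe sets, 43.2% read lower and 12.6% did so without overlap. Limma called 0 of the 21 at a Benjamini-Hochberg adjusted p below 0.05 (0% of all tested), with adjusted p from 0.136 to 0.991. At an unadjusted p below 0.05 there were 9 of 21, all lower, against 6.79% of all tested probe sets lower and 3.59% higher. Probe sets of the same gene are repeat readings of it, and Cct3 and Cct4 hold 6 of the 21 each. Cct3 gave 4 and Cct4 5 of the 13 without overlap, and they gave 4 and 3 of the 9. By the brightest probe set of each gene, 5 of the 8 subunits were lower without overlap, and 3 had an unadjusted limma p below 0.05. In bulk blood, fewer cells of a type and less RNA per cell cannot be told apart, so these values describe the mixture. Leaving out any 1 array kept the 8 subunits lower. The median stood between -0.71 and -0.56 in these fits, and 19 to 21 of the 21 probe sets read lower. With a DBAxFVB F1 array left out, 8 to 11 of the 21 had an unadjusted limma p below 0.05. In the same fits, 5% to 7.49% of all tested probe sets were lower at that p. Fits with 1 AKRxFVB F1 array left are given by their differences only.

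**Figure D1:**
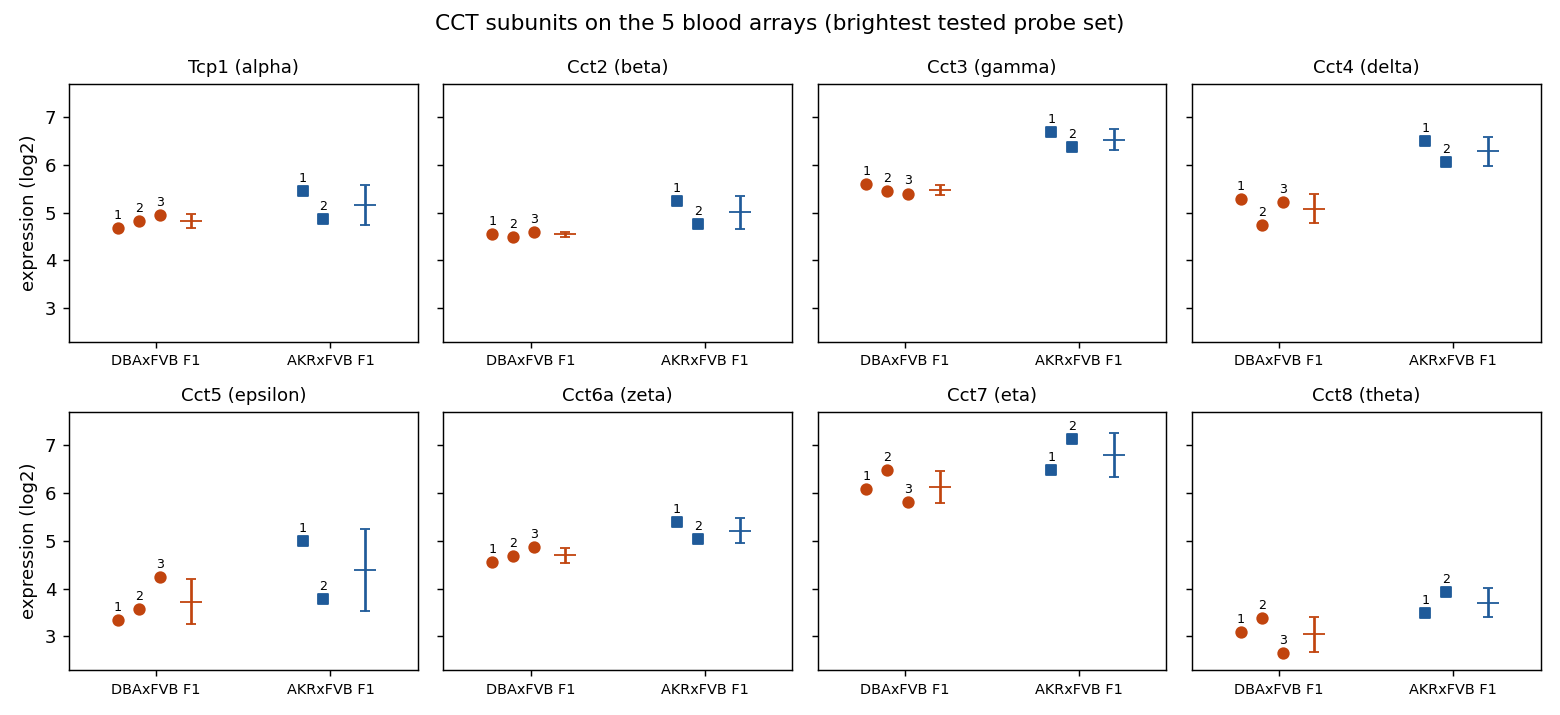
Log2 expression of each CCT subunit gene by its brightest tested probe set, with 1 point per array (numbers are the array numbers of a cross, red circles DBAxFVB F1, blue squares AKRxFVB F1) and the mean with its SD beside the points. Cct3 and Cct4 show the widest gap between the crosses, 0.77 and 0.78. The arrays of Tcp1 and Cct5 overlap, and those of Cct7 meet. Probe sets of different genes are not comparable in level.

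By the brightest probe set, the delta and gamma subunit genes had the largest differences. Averaged over all tested probe sets of a gene, Cct6a stood at -0.84 and Cct4 and Cct3 at -0.72 each. In yeast, the delta subunit is among those that bind ATP strongly and the gamma subunit among those that bind it weakly. Cct4 read 5.28, 4.74 and 5.23 on the DBAxFVB F1 arrays, against 6.50 and 6.06 on the AKRxFVB F1 arrays (probe set 1415867_at). The groups stood clear of each other, with array 1 of AKRxFVB F1 highest and array 2 of DBAxFVB F1 lowest. Its means were 5.08 ± 0.30 (SD, n = 3) in DBAxFVB F1 and 6.28 ± 0.32 (SD, n = 2) in AKRxFVB F1, a difference of -1.20 ± 0.30 (SE) or a level 2.29-fold lower in DBAxFVB F1, with a limma adjusted p of 0.24. The 95% interval of this difference ran from -1.89 to -0.51.

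Other Cct4 probe sets ranged from a larger difference to almost none. Probe set 1433447_x_at read 4.16, 4.50 and 4.72 in DBAxFVB F1, against 6.49 and 5.61 in AKRxFVB F1. That gap of 0.89 between the nearest arrays was the widest of any CCT probe set, and the difference of -1.59 ± 0.33 (SE) corresponded to a 3.01-fold lower level (limma adjusted p = 0.177). Probe set 1438560_x_at, at 3.73, 3.41 and 3.51 in DBAxFVB F1 and 4.76 and 4.41 in AKRxFVB F1, differed by -1.04 ± 0.21 (limma adjusted p = 0.173). Of the dimmer probe sets, 1456572_x_at and 1456082_x_at differed by -0.24 and -0.26 and 1415868_at by -0.03, and 1430034_at, below the filter and thus not tested, by 0.09. The suffix _x_at marks probe sets whose probes can also bind other transcripts, so 4 of the 6 tested Cct4 probe sets are uncertain in that respect. Probe set 1415867_at carries no such mark.

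Cct3 read 5.60, 5.45 and 5.40 in DBAxFVB F1, against 6.68 and 6.37 in AKRxFVB F1 (probe set 1416024_x_at). All 3 DBAxFVB F1 arrays lay within a narrow span well under both AKRxFVB F1 arrays. The means were 5.48 ± 0.11 (SD, n = 3) in DBAxFVB F1 and 6.53 ± 0.22 (SD, n = 2) in AKRxFVB F1, and the difference was -1.04 ± 0.27 (SE), 2.06-fold lower in DBAxFVB F1 (limma adjusted p = 0.246). This brightest probe set bears the _x_at mark, and the next, 1448178_a_at, which does not, read 3.75, 3.70 and 3.55 in DBAxFVB F1 and 4.78 and 4.03 in AKRxFVB F1. It differed by -0.73 ± 0.25 (limma adjusted p = 0.388), again without overlap. The probe sets 1459987_s_at and 1449645_s_at differed by -0.80 ± 0.22 and -0.77 ± 0.23 with separate groups, and 1439679_at and 1426067_x_at by -0.57 ± 0.38 and -0.38 ± 0.18 with overlapping ones. Their limma adjusted p lay between 0.262 and 0.637. The seventh, 1451915_at, lay below the filter and differed by -0.08.

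The zeta subunit gene gave the smallest p of any CCT probe set, though not by its brightest one. Cct6a encodes the zeta subunit of most tissues, and a paralogue, Cct6b, serves in testis. Probe set 1455988_a_at of Cct6a read 2.98, 2.61 and 2.74 in DBAxFVB F1, against 4.12 and 3.78 in AKRxFVB F1. The DBAxFVB F1 values stood little above the array medians of 2.49 to 2.54, near the lower end of the scale. The difference was -1.18 ± 0.19 (SE), with means of 2.78 ± 0.19 (SD, n = 3) in DBAxFVB F1 and 3.95 ± 0.24 (SD, n = 2) in AKRxFVB F1, and its limma adjusted p was 0.136, rank 46 by p of all probe sets tested. The brighter probe set 1423517_at read 4.56, 4.68 and 4.87 in DBAxFVB F1, against 5.40 and 5.03 in AKRxFVB F1. These groups were also separate, by 0.15, and differed by -0.50 ± 0.24 (limma adjusted p = 0.527), or by -0.32 without AKRxFVB F1 array 1. Cct6b lay below the filter.

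Tcp1 and Cct2, the alpha and beta subunit genes, had the smallest differences by brightest probe set. Tcp1, named after the t complex of mouse chromosome 17 where it lies, read 4.67, 4.82 and 4.96 in DBAxFVB F1, against 5.45 and 4.87 in AKRxFVB F1. Only AKRxFVB F1 array 1 stood apart, and array 2 fell inside the DBAxFVB F1 range. The difference was -0.34 ± 0.27 (SE; limma adjusted p = 0.683), with -0.05 when AKRxFVB F1 array 1 was left out and -0.64 when array 2 was. Cct2 read 4.56, 4.49 and 4.59 in DBAxFVB F1, against 5.25 and 4.76 in AKRxFVB F1 (probe set 1433535_x_at). The groups were separate, by 0.17, with AKRxFVB F1 array 2 nearer to the DBAxFVB F1 arrays than to array 1 of its own cross. This gave -0.46 ± 0.24 (limma adjusted p = 0.547), with -0.22 when AKRxFVB F1 array 1 was left out and -0.71 when array 2 was. The brightest Cct2 probe set bears the _x_at mark. The second tested Cct2 probe set, 1416037_a_at, does not, and it differed by -0.63 ± 0.38 with overlapping groups. The third, 1433534_a_at, fell below the filter and differed by -0.24. Cct2 thus counts among the subunits lower without overlap only through an _x_at probe set.

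Cct5, the epsilon subunit gene, in which a human mutation causes a sensory neuropathy, varied more within each cross than the brightest probe set of any other subunit. It has 1 probe set, which read 3.35, 3.58 and 4.25 in DBAxFVB F1, against 5.0 and 3.79 in AKRxFVB F1. The groups overlapped: DBAxFVB F1 array 3 lay above AKRxFVB F1 array 2. Means of 3.73 ± 0.47 (SD, n = 3) in DBAxFVB F1 and 4.40 ± 0.85 (SD, n = 2) in AKRxFVB F1 gave a difference of -0.67 ± 0.40 (SE; limma adjusted p = 0.602). Leaving out AKRxFVB F1 array 1 gave -0.07 and leaving out array 2 of that cross gave -1.27, so the value rests on which of these arrays is used.

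Cct7 and Cct8, the eta and theta subunit genes, followed another order of arrays than the rest. Cct7 read 6.08, 6.48 and 5.81 in DBAxFVB F1, against 6.48 and 7.13 in AKRxFVB F1 (probe set 1415816_at). DBAxFVB F1 array 2 reached the level of AKRxFVB F1 array 1, so the groups met, and the difference was -0.68 ± 0.35 (SE; limma adjusted p = 0.543), or -0.36 without AKRxFVB F1 array 2 and -1.01 without array 1. The second Cct7 probe set, 1415817_s_at, read 4.21, 4.55 and 3.92 in DBAxFVB F1, against 4.06 and 4.41 in AKRxFVB F1. It kept the order of arrays within each cross but had a difference of -0.01 ± 0.25, with a 95% interval from -0.60 to 0.57, which overlaps that of the first probe set, from -1.49 to 0.13. Cct8 read 3.10, 3.38 and 2.66 in DBAxFVB F1, against 3.49 and 3.92 in AKRxFVB F1 (probe set 1415785_a_at). All DBAxFVB F1 arrays were lower, by 0.11 at the nearest, and the difference was -0.66 ± 0.25 (limma adjusted p = 0.419), or -0.44 without AKRxFVB F1 array 2. The dim second probe set of Cct8, 1436973_at, was not tested and differed by 0.08.

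**Figure D2:**
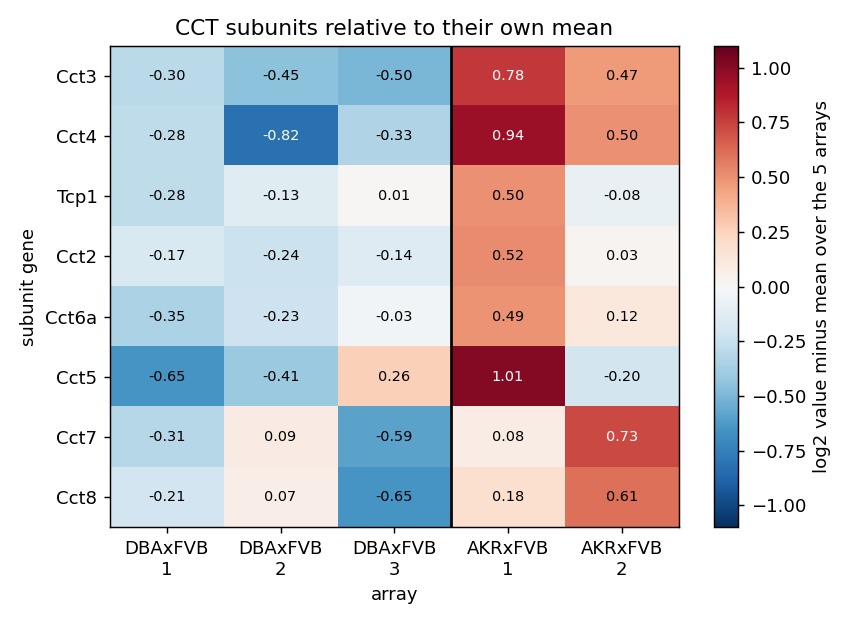
Each CCT subunit gene (rows) on each array (columns), as its log2 value minus its own mean over the 5 arrays; red is above and blue below that mean, and the line separates DBAxFVB F1 (left) from AKRxFVB F1 (right). Cct7 and Cct8 are highest on AKRxFVB F1 array 2 and lowest on DBAxFVB F1 array 3, whereas the other 6 genes are highest on AKRxFVB F1 array 1.

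Set against its own mean over the 5 arrays, the median subunit stood at -0.29, -0.23 and -0.24 on the DBAxFVB F1 arrays and at 0.51 and 0.29 on the AKRxFVB F1 arrays. The arrays of a cross were thus close for the median, with a pooled SD of 0.09, while single subunits spread around it with an SD over subunits of 0.14 to 0.35 on an array. Of the 8 genes, 6 were highest on AKRxFVB F1 array 1 and 2, Cct7 and Cct8, on array 2. The lowest array was DBAxFVB F1 array 1 for 3 genes, array 2 for 2 genes and array 3 for 3 genes. Likeness of centred profiles was measured as the root mean square difference over the 5 arrays. It was smallest for Cct7 with Cct8, at 0.09, and Tcp1, Cct2 and Cct6a lay within 0.10 to 0.11 of each other. Cct3 and Cct4 were 0.20 apart, and Cct5 with Cct7, at 0.75, were the most unlike. On DBAxFVB F1 array 3, Cct5 stood 0.26 above its mean, and Cct7 and Cct8 stood at -0.59 and -0.65. The centred median of the 6 platelet markers had the same highest and lowest arrays as Cct7 and Cct8. It stood at 0.22, 0.42 and -1.29 on the DBAxFVB F1 arrays and at -0.25 and 0.86 on the AKRxFVB F1 arrays. The single marker Ppbp was highest on DBAxFVB F1 array 2 instead. The centred median of all tested probe sets was also highest and lowest on those arrays at a mean of 6 to 8, where Cct7 lies. It was 0.04, 0.11 and -0.65 on the DBAxFVB F1 arrays and 0.09 and 0.36 on the AKRxFVB F1 arrays. At a mean of 3 to 4, where Cct8 lies, it did not have this order. It was highest there on DBAxFVB F1 array 3, at 0.03, and lowest on AKRxFVB F1 array 1, at -0.06. The part of platelet RNA or of brightness in this order was not tested, and the groupings describe 5 arrays only.

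**Figure D3:**
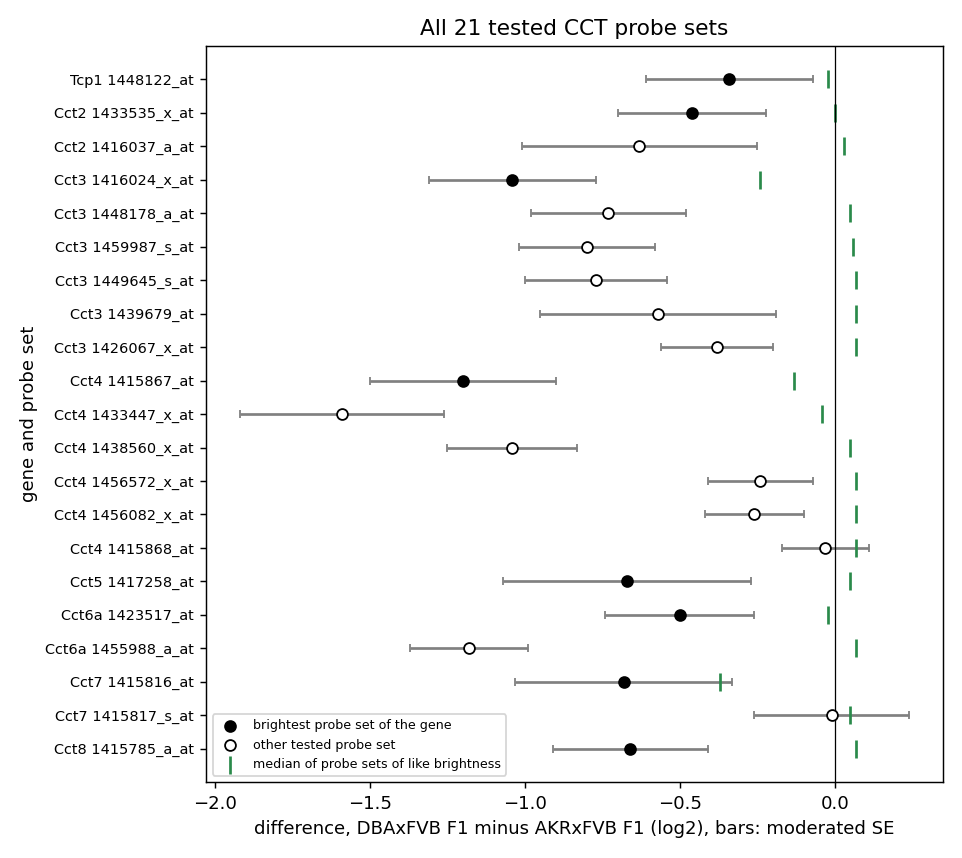
Difference between the crosses (DBAxFVB F1 minus AKRxFVB F1, log2) for the 21 tested CCT probe sets, with limma's moderated standard error; filled points are the brightest probe set of a gene, open points its others, and green bars the median difference of all tested probe sets whose mean lies within 0.5 of that probe set. All 21 points lie at or left of -0.01, and the green bars lie between -0.37 and 0.07.

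Over all tested probe sets, the median difference was 0.03 to 0.07 at means of 2.5 to 5. It was -0.12 at 5 to 6, -0.44 at 6 to 8, -0.56 at 8 to 10 and -0.30 at 10 to 15. At 6 to 8 and 8 to 10, the centred median was -0.65 and -0.91 on DBAxFVB F1 array 3, and 0.36 and 0.37 on AKRxFVB F1 array 2. Each CCT probe set was therefore set beside those of like brightness, with a mean within 0.5 on the log2 scale. The median difference of these neighbours was -0.13 for Cct4, -0.24 for Cct3 and -0.37 for Cct7, the brightest probe sets of these genes, and between -0.02 and 0.07 for the other 5 subunits. Every tested CCT probe set, 21 of 21, differed by more to the negative side than the median of its neighbours. Among the neighbours, 6.01% differed as far to the negative side as Cct4 or further, 9.98% as far as Cct3 and 25.9% as far as Cct7. For the brightest probe sets of Tcp1, Cct2 and Cct6a these shares were 27.7%, 18.8% and 20.0%, and for those of Cct5 and Cct8 6.98% and 3.53%. For 1455988_a_at, the dimmer tested probe set of Cct6a, it was 0.528%. With each probe set centred on its neighbours, Cct4 stood at -1.08, Cct3 at -0.85 and Cct7 at -0.36, and the median subunit at -0.59. After quantile normalization it stood at -0.50, with Tcp1 at -0.18, Cct7 at -0.30, Cct3 at -0.72 and Cct4 at -0.91.

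The 18 hybridisation control probe sets had a median of 7.99 on DBAxFVB F1 array 3, against 10.01 to 10.12 on the other 4 arrays, and the difference between 3-prime and 5-prime probe sets of Actb, a sign of RNA quality, was 1.32 there, against 0.68 and 0.82 on the other DBAxFVB F1 arrays and 1.03 and 1.22 on the AKRxFVB F1 arrays. Without that array all 8 subunits were lower in DBAxFVB F1, 7 without overlap, at a median of -0.56. Of the 21 probe sets, 20 were then lower and 16 without overlap, beside 17.7% of all tested probe sets. A housekeeping gene read lower as well: Hprt, a purine salvage enzyme, at 3.40 ± 0.28 (SD, n = 3) in DBAxFVB F1 and 4.53 ± 0.40 (SD, n = 2) in AKRxFVB F1, differed by -1.13 ± 0.25 (SE; limma adjusted p = 0.195). Of the other housekeeping genes listed, Actb is described with the clients of CCT, Tbp lay below the filter, and Gapdh was used only through its control probe sets, whose 3-prime minus 5-prime difference was 0.62, 0.58 and 1.33 on the DBAxFVB F1 arrays and 1.04 and 0.73 on the AKRxFVB F1 arrays.

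Genes that work with CCT mostly read lower too, and none passed. Of the 6 prefoldin genes 5 were tested, and 5 read lower, with a median of -0.39 and 1 without overlap. Over all tested probe sets 43.2% were lower and 12.6% lower without overlap. These shares were 61.5% and 23.3% at a mean of 5 to 6, where Pfdn2 lies, and 80.3% and 28.5% at 6 to 8, where Vbp1 and Pfdn5 lie. Pfdn2 differed by -0.09, the same as the median of its brightness neighbours. Pfdn5, the prefoldin subunit also known as a MYC-binding protein, read 7.01, 7.32 and 6.18 in DBAxFVB F1, against 7.96 and 7.62 in AKRxFVB F1. The groups were separate and differed by -0.95 ± 0.41 (SE; limma adjusted p = 0.481), in a brightness range whose median was -0.50. Pfdn4 differed by -0.39 ± 0.19 and Vbp1, the prefoldin subunit that binds the von Hippel-Lindau protein, by -0.60 ± 0.50, both with overlap. Of the 4 phosducin-like and related cochaperones 2 were tested. Pdcl, the cochaperone with which CCT assembles G protein beta and gamma subunits, read 2.98, 2.72 and 2.92 in DBAxFVB F1, against 3.39 and 3.70 in AKRxFVB F1. This was a difference of -0.67 ± 0.17 (limma adjusted p = 0.246) with separate groups, at low levels. Txndc9 differed by -0.34 ± 0.18 with overlap.

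Clients of CCT were taken class by class. Both cytoplasmic actin genes read lower without overlap, as did 35.4% of all probe sets with a mean of 8 to 10 and 17.5% of those with a mean of 10 to 15. Actb read 10.44, 10.55 and 9.90 in DBAxFVB F1, against 10.91 and 11.00 in AKRxFVB F1, and Actg1 differed by -0.76 ± 0.40 (SE; limma adjusted p = 0.555). Probe sets of their brightness had medians of -0.44 and -0.57, and DBAxFVB F1 array 3 was the lowest for both. Of 11 tested tubulin genes 9 read lower and 2 higher, with a median of -0.23 and 3 lower without overlap. Over all tested probe sets 43.2% were lower and 12.6% lower without overlap. At a mean of 5 to 6, where Tubb5 lies, these shares were 61.5% and 23.3%. They were 80.3% and 28.5% at 6 to 8, where Tuba1a and Tuba4a lie. At 8 to 10, where Tubb1 lies, they were 93.6% and 35.4%. Tubb5, a widely expressed beta tubulin, read 5.25, 5.49 and 5.67 in DBAxFVB F1, against 6.05 and 6.08 in AKRxFVB F1, a difference of -0.60 ± 0.27 (limma adjusted p = 0.502). Tuba1a and Tubb2b differed by -0.62 ± 0.32 and -0.47 ± 0.26. Probe sets of like brightness had medians of -0.17 for Tubb5, -0.32 for Tuba1a and 0.07 for Tubb2b.

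Beta-propeller clients numbered 10 tested genes, 6 lower and 4 higher, with a median of -0.10 and 2 lower without overlap. Over all tested probe sets 43.2% were lower and 12.6% lower without overlap, the latter 11.5% at a mean of 3 to 4. With 10 genes, these counts are not set apart from those shares. Dcaf7, a WD40 protein that binds DYRK kinases, differed by -0.99 ± 0.29 (SE; limma adjusted p = 0.309) and Gnb1, a G protein beta subunit, by -0.56 ± 0.21 (limma adjusted p = 0.426), both without overlap. Ppp2r2a, a regulatory subunit of protein phosphatase PP2A, differed by -0.40 ± 0.31 with overlap. Among the tubulin cofactors, which join alpha and beta tubulin after CCT has released them, 1 of 4 tested genes read lower. This was Tbca, the cofactor that holds beta tubulin, at 4.62, 4.55 and 4.38 in DBAxFVB F1, against 5.49 and 5.04 in AKRxFVB F1. Its groups were separate and differed by -0.75 ± 0.24 (limma adjusted p = 0.362), whereas Arl2 and Tbcc differed by 0.40 ± 0.22 and 0.24 ± 0.28 in the other direction. Bbs10, a chaperonin-like Bardet-Biedl syndrome protein, was the only tested gene of 4 chaperonin-like and paralogous ones. It read higher in DBAxFVB F1, by 0.39 ± 0.28, where its brightness neighbours had a median of -0.33.

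**Figure D4:**
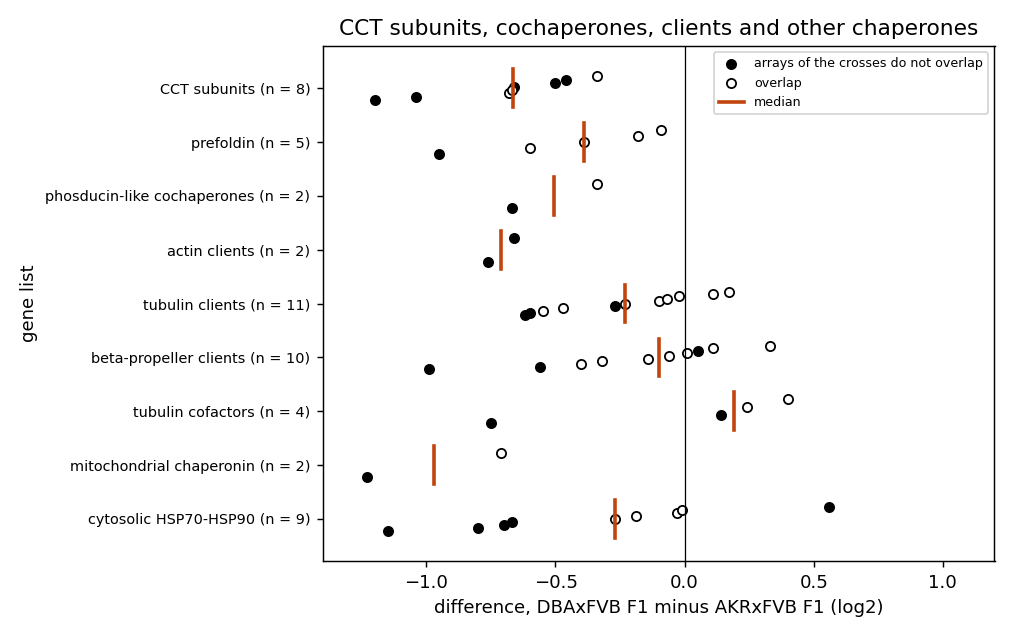
Difference between the crosses (DBAxFVB F1 minus AKRxFVB F1, log2) for the CCT subunits and for the tested genes of 8 related lists, 1 point per gene by its brightest tested probe set; filled points are genes whose arrays do not overlap between the crosses, and red bars are medians. The medians were -0.67 for CCT, -0.39 for prefoldin, -0.23 for tubulins, -0.10 for beta-propeller clients and 0.19 for tubulin cofactors.

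Other chaperone systems held genes with differences as large as those of CCT. The mitochondrial chaperonin, which folds proteins of the matrix, is formed by Hspd1 and its lid Hspe1. Hspd1 read 4.70, 3.51 and 4.79 in DBAxFVB F1, against 5.68 and 5.45 in AKRxFVB F1, a difference of -1.23 ± 0.40 (SE; limma adjusted p = 0.362), where probe sets of like brightness had a median of -0.01. Hspe1 differed by -0.71 ± 0.30 with overlap. Of 9 tested genes of the cytosolic HSP70 and HSP90 system 8 read lower, 4 without overlap, with a median of -0.27. Over all tested probe sets 43.2% were lower and 12.6% lower without overlap. At a mean of 6 to 8, where Hspa8 and Hsp90aa1 lie, these shares were 80.3% and 28.5%. Hspa8, the constitutive HSP70, read 6.54, 6.33 and 6.69 in DBAxFVB F1, against 7.68 and 7.66 in AKRxFVB F1, and differed by -1.15 ± 0.30 (limma adjusted p = 0.251), where probe sets of like brightness had a median of -0.47. Hsph1 and Dnaja1, its nucleotide exchange factor and a J-domain partner, differed by -0.80 ± 0.22 and -0.70 ± 0.24 without overlap. St13, an HSP70-interacting cochaperone singled out after its values were seen as the 1 gene of this list that read higher, differed by 0.56 ± 0.20 (limma adjusted p = 0.41). Differences between lists were not tested.

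The profile over the 5 arrays most like the median CCT profile, among 12413 other genes by their brightest tested probe set, was that of Cybc1, a chaperone of the phagocyte oxidase. Its root mean square difference from the CCT median, after centring, was 0.025, against a median of 0.41 over all genes compared. Cybc1 read 3.47, 3.46 and 3.47 in DBAxFVB F1, against 4.25 and 4.01 in AKRxFVB F1, a flat low group and a higher one. Next came Gpkow, an RNA-binding spliceosome protein, at 0.044, Tmem135 at 0.053, the chemokine receptor Cxcr6 at 0.058 and Ezh2, the histone H3 lysine methyltransferase of Polycomb complex, at 0.064. Their differences ran from -0.68 for Tmem135 to -0.57 for Cxcr6. Most of these lie at low levels: Ezh2 averaged 2.62 in DBAxFVB F1 and 3.28 in AKRxFVB F1.

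The labelled tissue was checked against markers of blood cells. Alas2, the first enzyme of erythroid heme synthesis, read 13.50 to 13.57 in DBAxFVB F1 and 13.45 to 13.59 in AKRxFVB F1. Pf4, a chemokine of platelet granules, read 8.53 to 10.72 in DBAxFVB F1 and 9.58 to 11.30 in AKRxFVB F1, and the neutrophil protein S100a8 read 6.23 to 7.0 in DBAxFVB F1 and 6.43 to 7.43 in AKRxFVB F1. These 3 genes, picked as examples after their values were seen, read above the array medians on every array. Of the same neutrophil list, Cxcr2 and Mmp8 read near those medians, with group means of 2.43 to 2.71. Hba-a1, an alpha globin gene, also read near them, at 2.60 to 2.68 in DBAxFVB F1 and 2.34 to 2.56 in AKRxFVB F1. The 932 probe sets with several symbols were read for no gene, so this value need not give the level of alpha globin RNA. Its cause was not tested. Of 5 tested B cell markers 4 read lower, with a median of -1.05, and their summed level was 6.58 to 7.46 in DBAxFVB F1 and 7.71 to 8.91 in AKRxFVB F1 (log2 of the sum of linear values). Ms4a1, the B cell antigen CD20, differed by -1.96 ± 0.45 (SE; limma adjusted p = 0.21). Of 6 T cell markers 5 were tested and 5 read lower, with a median of -0.38 and a summed level of 6.07 to 6.59 in DBAxFVB F1 and 7.03 to 7.08 in AKRxFVB F1. The summed levels of both lymphocyte lists thus did not overlap between the crosses. Gene by gene, 1 of the 5 tested B cell markers, Ms4a1, and 3 of the 5 T cell markers were lower without overlap. Over all tested probe sets 43.2% were lower and 12.6% lower without overlap. Ms4a1 was the brightest B cell marker on every array and so weighs most in that sum, while Pax5 differed by 0.09. Summed levels also stood apart for lists that mark no cell type. The cytosolic HSP70 and HSP90 genes summed to 8.03 to 8.11 in DBAxFVB F1 and 8.73 to 8.77 in AKRxFVB F1. Prefoldin genes summed to 7.36 to 8.40 in DBAxFVB F1 and 8.44 to 8.73 in AKRxFVB F1. The summed levels of the other cell type lists overlapped. Platelet markers summed to 10.39 to 12.19 in DBAxFVB F1 and 11.61 to 12.53 in AKRxFVB F1, and erythroid markers to 13.58 to 13.77 in DBAxFVB F1 and 13.61 to 13.77 in AKRxFVB F1. Neutrophil markers summed to 7.69 to 8.50 in DBAxFVB F1 and 7.91 to 8.65 in AKRxFVB F1, and monocyte markers to 6.20 to 7.06 in DBAxFVB F1 and 6.42 to 6.70 in AKRxFVB F1. No marker was at 0, since the scale has no 0, and the T cell kinase gene Lck was not analysed here. The centred B cell median was highest on AKRxFVB F1 array 1, at 1.32, and stood at -0.06 on array 2, while that of CCT was 0.51 and 0.29. The part of the lymphocyte markers in the CCT differences was not tested. Of 6 heart muscle markers, which a cardiac puncture could bring, 3 were tested, with a median of -0.07. Actc1, the cardiac actin gene, read higher in DBAxFVB F1 without overlap, by 0.75 ± 0.27 (SE; limma adjusted p = 0.408), and Tnnt2 and Mybpc3 differed by -0.15 ± 0.17 and -0.07 ± 0.17.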

How the data were processed

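For each probe set and array the authors deposited 1 normalized value, read here as log2 expression because the values ran from 1.29 to 14.8; no label or header states the base. MAS5 and RMA are named, per the submitters' processing notes, without saying which made these values, so background correction, normalization and detection limit are unknown. RNA came from cardiac blood by Trizol and was amplified in 2 cycles, per the labels' protocols.

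Symbols came from the platform annotation, which gave 1 symbol to 34958 of 45101 probe sets, and 64 control probe sets were left out. Tested were the 22519 probe sets with a mean over the 5 arrays at or above the median, 2.51. Of the 25 CCT probe sets 21 passed; the mean of each of these over the DBAxFVB F1 arrays alone was 2.71 or more. Limma 3.58.1 in R 4.3.3 (lmFit, eBayes with a variance trend, cross as the only term, two-sided) gave differences, moderated standard errors and 95% intervals, which are not adjusted for the number of probe sets; p was adjusted by Benjamini-Hochberg over all tested probe sets. An exact permutation test of 3 against 2 arrays cannot go below 0.1 and was not run. The brightest tested probe set stands for a gene. The limma step was tested on simulated data. The members and lists were chosen with earlier results of these data known. Named were all members, up to 3 genes per list with the smallest p, and the 5 genes of most similar profile. Some other list genes are named for their brightness range or as exceptions. St13 and the blood markers Alas2, Pf4, S100a8 and Hba-a1 were added after their values were seen. Alternatives were other normalizations, filters and variance estimates, array weights, a replicate block, other probe sets, and each array left out.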

Additional observations from a re-analysis of the deposited data

How the results depend on the processing

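In the 17 alternatives that give subunit differences, these stayed below 0 in 136 of 136 values, and 0 of the 128 with a test passed the limma threshold; the 8 means over probe sets have no test. The median over subunits, -0.67, was -0.50 after quantile normalization and -0.56 with array weights, and it lay between -0.71 and -0.56 with 1 array left out, where a cross reduced to 1 array is assumed to vary like the other. Apart from the replicate block, the other alternatives, among them brightness centring (-0.59), kept it within 0.09 of that value, the SD between arrays of a cross. Leaving out _x_at probe sets, an alternative chosen after seeing the data, gave -0.67. No probe set in the whole table passed in any setting with adjusted p, by limma, and with an unadjusted p below 0.05 the counts were 2337 in the whole table and 9 of the CCT probe sets. The replicate numbers pair no samples by the labels, and the deviations of same-numbered arrays correlated at -0.259 for number 1 and 0.172 for number 2; with the replicate number as a block the median was -0.56, with 0 probe sets past the threshold, and array 3 of DBAxFVB F1 has no partner in that fit. The cause of these shifts was not tested. A planned floor for linear values was not run, because the values are on a log scale. The number of arrays, 2 and 3, and the unknown detection limit bound what these values can show.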
